A study of Mus musculus with 11 samples.

Results

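Loss of Nemo in hepatocytes was compared with the wild type in whole liver RNA of male mice. The members were the 6 arrays whose titles name them as Nemo KO (replicates 1 to 3) or WT (replicates 1 to 3), of 11 arrays in the series, and they were described over 19938 genes that had a probe set with a single symbol. Nemo KO mice (NemoΔhepa) carried loxP-flanked Nemo deleted in liver parenchymal cells, and WT mice are labelled as wild type with no further detail. All were male C57/BL6 mice of 8 to 9 weeks on chow. The labels and files do not name the promoter that drove the Cre recombinase. They also do not say whether each array had its own animal, and p-values then cover the spread between arrays, which may be technical. The other 5 arrays, 2 of Nemo/TRAIL dKO and 3 of Nemo/TNFR1 dKO, came from mice that lacked TRAIL or TNFR1 in every cell besides Nemo in the hepatocytes. They entered the fit for its estimate of the spread and are described at the end.

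Ikbkg encodes Nemo, the non-catalytic subunit that the IκB kinase needs to carry signals from receptors such as TNFR1 to the transcription factor NF-κB. In hepatocytes this pathway holds back cell death, and mice without hepatocyte Nemo are known to develop hepatitis, compensatory hepatocyte division, fibrosis and liver tumours. A whole-liver array sees all the cells of the organ together: the hepatocytes that lost Nemo, and also Kupffer cells, infiltrating monocytes, stellate cells, bile duct and endothelial cells that kept it.

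Values are log2 expression values, so a difference of 1 is a 2-fold change. Differences are Nemo KO minus WT with their standard error (SE), and a gene was called higher ("rose") or lower ("fell") at an adjusted p below 0.05. Ikbkg measured 8.34, 8.56 and 8.36 in the Nemo KO livers, against 8.65, 8.73 and 8.60 in the WT livers. Its groups did not overlap, but the difference of -0.24 ± 0.08 did not pass (adjusted p = 0.106), and which part of the gene the probes cover was not examined. WT replicate 3 stood apart: the median of 22 pancreatic acinar genes was 10.96 in that array, between 5.30 and 5.41 in the Nemo KO arrays, and 5.55 and 5.36 in WT replicates 1 and 2. Array numbers followed genotype, 4 to 6 in Nemo KO and 1 to 3 in WT, so array order and genotype cannot be told apart. In bulk RNA, a change in the number of cells of a type and a change in RNA per cell cannot be told apart either. The number of arrays limits the precision, with a median SE of 0.10.

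Most called genes were higher in Nemo KO. In Nemo KO 1696 genes rose (8.51% of those tested) and 813 fell (4.08%), while 9.29% of all 35556 probe sets passed in either direction. The asymmetry grew with size. A rise of at least 2-fold was seen in 437 genes and a fall of that size in 46, and a rise of at least 4-fold in 55 genes and a fall of that size in 7. The median difference over all genes was -0.05. Without WT replicate 3, 1382 genes rose (6.93%) and 771 fell (3.87%), and 1868 of the 2509 calls were shared with the fit of all arrays. For 7269 genes (36.5%) the 3 Nemo KO values did not overlap the 3 WT values, and 2508 of the 2509 called genes are among them, so that a lack of overlap comes with nearly every call. Called genes were spread unevenly over the Nemo KO arrays. Replicate 1 lay nearest to the WT mean in 921 of the genes that rose (54.3%), and in 399 of those that fell (49.1%). Of the called genes 1268 passed in all 11 fits that left out a single array. A gene described below as changed, without a remark, passed in all 11 of these fits, in a fit of the 6 arrays alone and under the other normalizations and moderations tried.

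Ly6d and Sprr1a, both known from epidermis, were among the genes that rose most. Ly6d, a small surface antigen, measured 9.50, 11.09 and 11.58 in the Nemo KO livers, against 5.86, 6.81 and 6.46 in the WT livers, and rose by 4.35 ± 0.51 (SE, adjusted p = 0.00114). The cornified envelope gene Sprr1a measured 9.30, 10.61 and 10.29 in the Nemo KO livers, against 6.20, 6.07 and 6.49 in the WT livers, a rise of 3.81 ± 0.30 (SE, adjusted p = 0.000338). In both genes Nemo KO replicate 1 was the lowest of the Nemo KO arrays, and still lay 2.69 and 2.81 above the highest WT array. Of 44 measured cornified envelope and Ly6 family genes 4 rose and 2 fell, with a median of -0.09 (0 or 1 falls in each of the 11 fits without 1 array). Their shares, 9.09% and 4.55%, are near the 8.51% and 4.08% of all genes. Ly6e (0.88 ± 0.08) was the next in size.

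Further genes among the 30 with the largest rise included many with known roles in cell division, named here in part, and others of unlike function. Mybl1, a Myb family factor best known from the germ line, measured 8.04, 9.15 and 9.36 in the Nemo KO livers, against 4.42, 4.84 and 4.81 in the WT livers, and rose by 4.16 ± 0.49 (SE, adjusted p = 0.00113). Gldn, a secreted olfactomedin protein of nerve, measured 8.03, 8.58 and 8.33 in the Nemo KO livers, against 5.57, 5.18 and 5.27 in the WT livers (difference 2.97 ± 0.26). The melatonin receptor Mtnr1a measured 9.08, 8.91 and 8.94 in the Nemo KO livers, against 6.01, 6.38 and 6.80 in the WT livers (difference 2.58 ± 0.19). The Nemo KO arrays of Gldn and Mtnr1a spread over less than 1 log2 unit. The chemokine Cxcl14 rose by 2.76 ± 0.42, the membrane protein Emp1 by 2.66 ± 0.34, the phospholipid-binding annexin Anxa2 by 2.48 ± 0.25 and the pseudophosphatase Mtmr11 by 2.46 ± 0.24. Others among the 30, picked here for known roles in the spindle, the chromatids or cytokinesis, were Knstrn (3.02 ± 0.27), Hmmr (2.87 ± 0.34), Ect2 (2.85 ± 0.31), Mki67 (2.70 ± 0.29), Esco2 (2.58 ± 0.21), Ckap2 (2.48 ± 0.27), Bub1 (2.48 ± 0.33), Cdk1 (2.45 ± 0.26) and Anln (2.44 ± 0.30). The cyclin Ccnd1, which acts before S phase, measured 10.91, 11.62 and 11.54 in the Nemo KO livers, against 9.07, 8.56 and 8.96 in the WT livers (difference 2.49 ± 0.20). The call of Nipal2 (2.49 ± 0.52) was lost without Nemo KO replicate 2 or WT replicate 1 (adjusted p up to 0.061), and in the fit of the 6 arrays alone. Akr1c18 (2.51 ± 0.59) did not pass without WT replicates 1, 2 or 3 (adjusted p up to 0.0842), nor in the fit of the 6 arrays alone.

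**Figure D1:**
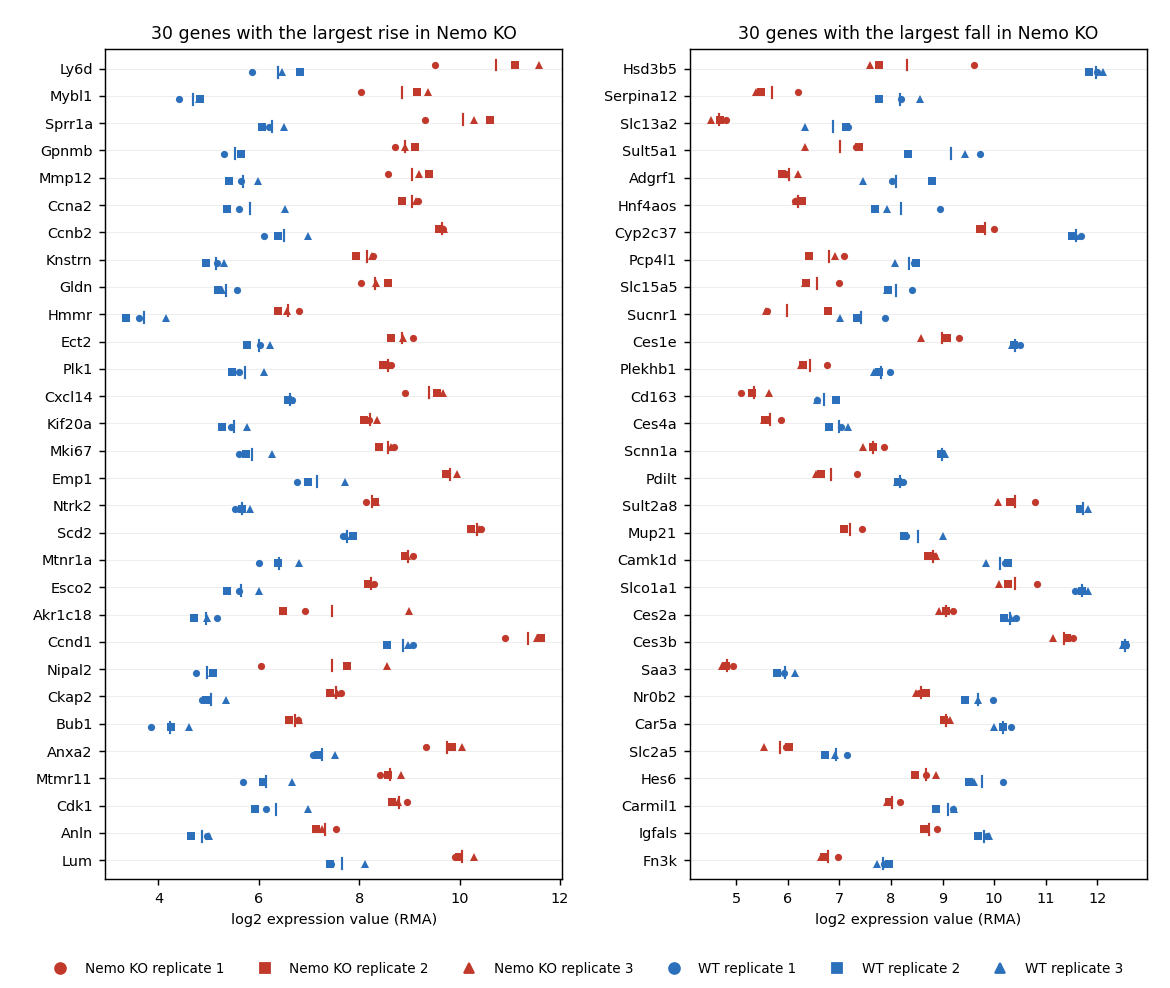
Log2 expression values (x axis) of the 30 genes with the largest rise (left) and the 30 with the largest fall (right) among called genes whose groups do not overlap. Each row is a gene, red marks are the 3 Nemo KO arrays, blue marks the 3 WT arrays, and vertical ticks are group means. Rises reach 4.35 and falls 3.67 log2 units, and WT replicate 3 (blue triangle) is the WT array nearest to the Nemo KO mean in 21 of the 30 rises.

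Promoter letters were read for the genes with the largest rises. RefSeq promoter windows (GRCm38.p6, 250 bases before to 50 after the start) were found for 43 of the 55 genes that rose at least 4-fold, with 51 windows in all, and for 15614 measured genes with 19177 windows. The letters of the cell cycle gene homology region, TTTGAA on either strand, stood in 21 of the 51 windows (41.18%), against 14.85% of all. The CCAAT box, the letters CCAAT on either strand, stood in 41.18% against 37.39%, and both together in 14 windows (27.45%) against 5.85%. The AP-1 letters TGANTCA stood in 9 windows (17.65%) against 6.9%. A TTTGAA match followed by TCA is an AP-1 match as well. No match to the NF-κB-type motif was found in the 51 windows, against 86 of the 19177 (0.45%). For the whole set of genes that rose, the shares were close to those of all promoters: 15.92% for TTTGAA, 36.09% for CCAAT and 7.31% for AP-1.

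The windows below were picked because they hold the letters, for 3 mitotic genes with both TTTGAA and CCAAT and 2 genes with AP-1 letters. Not all windows do: that of the mitotic kinase Bub1 had CCAAT and no TTTGAA and that of Knstrn neither, while those of Emp1 and Mtmr11, not known for mitosis, had TTTGAA. They are Ccnb2 at chr9:70421505-70421804 (minus strand), Plk1 at chr7:122159185-122159484 (plus strand), Cdk1 at chr10:69352863-69353162 (minus strand), Sprr1a at chr3:92485832-92486131 (minus strand) and Anxa2 at chr9:69453433-69453732 (plus strand), each written 5′ to 3′ with the matches to these 3 motifs, on either strand, in capitals.
Ccnb2 promoter: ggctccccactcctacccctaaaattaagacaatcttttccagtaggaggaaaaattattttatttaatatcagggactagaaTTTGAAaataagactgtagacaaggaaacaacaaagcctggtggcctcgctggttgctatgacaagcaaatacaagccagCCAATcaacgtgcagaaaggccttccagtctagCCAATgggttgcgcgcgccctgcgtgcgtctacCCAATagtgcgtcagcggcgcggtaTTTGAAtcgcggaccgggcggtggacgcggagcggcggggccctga
Plk1 promoter: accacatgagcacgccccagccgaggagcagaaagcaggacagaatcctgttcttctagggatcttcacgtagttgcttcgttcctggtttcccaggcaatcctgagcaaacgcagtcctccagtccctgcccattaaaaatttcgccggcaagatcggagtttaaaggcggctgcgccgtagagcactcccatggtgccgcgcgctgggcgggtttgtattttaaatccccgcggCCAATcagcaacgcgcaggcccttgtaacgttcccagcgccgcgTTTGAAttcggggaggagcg
Cdk1 promoter: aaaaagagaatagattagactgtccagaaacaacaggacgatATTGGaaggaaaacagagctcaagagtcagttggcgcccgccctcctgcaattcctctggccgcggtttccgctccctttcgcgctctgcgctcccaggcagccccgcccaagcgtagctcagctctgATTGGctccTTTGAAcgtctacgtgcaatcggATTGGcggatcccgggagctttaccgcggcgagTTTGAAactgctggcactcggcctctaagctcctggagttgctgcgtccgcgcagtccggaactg
Sprr1a promoter: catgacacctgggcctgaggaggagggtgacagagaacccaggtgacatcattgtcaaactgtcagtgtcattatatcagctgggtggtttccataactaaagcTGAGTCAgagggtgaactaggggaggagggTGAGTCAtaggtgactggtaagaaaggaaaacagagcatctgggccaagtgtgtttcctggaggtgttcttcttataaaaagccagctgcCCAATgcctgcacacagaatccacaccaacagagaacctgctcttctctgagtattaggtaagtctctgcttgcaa
Anxa2 promoter: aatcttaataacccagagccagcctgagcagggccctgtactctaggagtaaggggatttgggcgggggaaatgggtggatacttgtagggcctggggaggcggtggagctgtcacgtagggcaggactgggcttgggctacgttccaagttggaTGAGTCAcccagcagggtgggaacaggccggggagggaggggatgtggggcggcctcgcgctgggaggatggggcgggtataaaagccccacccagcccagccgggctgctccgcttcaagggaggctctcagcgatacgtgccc

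In the Ccnb2 window 3 CCAAT boxes precede a TTTGAA match that begins 4 bases after the start, and in Plk1 a single box stands before a match at base 30. Ccnb2, which drives entry into mitosis, measured 9.66, 9.58 and 9.70 in the Nemo KO livers, against 6.10, 6.39 and 6.98 in the WT livers. Plk1, a mitotic kinase, measured 8.64, 8.47 and 8.59 in the Nemo KO livers, against 5.61, 5.47 and 6.09 in the WT livers. Among the Nemo KO arrays both genes varied by less than 0.2 log2 units, while WT replicate 3 was the highest WT array in each. A match in these windows is a description of letters, and factor binding was not measured.

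The largest falls included metabolic and secretory genes of the hepatocyte. Hsd3b5, a steroid dehydrogenase of male liver, measured 9.60, 7.76 and 7.59 in the Nemo KO livers, against 12.001, 11.85 and 12.10 in the WT livers, a difference of -3.67 ± 0.77 (SE, adjusted p = 0.0165). The call of Hsd3b5 was lost without Nemo KO replicates 2 or 3 (adjusted p up to 0.0674). Slc13a2, a carrier of citrate and other dicarboxylates, measured 4.80, 4.69 and 4.50 in the Nemo KO livers, against 7.17, 7.12 and 6.33 in the WT livers, and fell by 2.21 ± 0.19 (SE, adjusted p = 0.000426). Serpina12, the hepatokine and adipokine vaspin, measured 6.20, 5.47 and 5.39 in the Nemo KO livers, against 8.20, 7.77 and 8.55 in the WT livers, and fell by 2.49 ± 0.39 (SE, adjusted p = 0.00441). In Slc13a2 the Nemo KO arrays lay within a narrow range and WT replicate 3 was the lowest WT array, whereas in Hsd3b5 and Serpina12 the Nemo KO arrays spread widely, with replicate 1 nearest to WT. The adhesion receptor Adgrf1 (-2.07 ± 0.28), the antisense transcript Hnf4aos next to Hnf4a (-1.99 ± 0.27), Pcp4l1 (-1.54 ± 0.17), the carrier Slc15a5 (-1.53 ± 0.20), Plekhb1 (-1.37 ± 0.19) and the kinase Camk1d (-1.30 ± 0.17) also fell. Strand was not examined for Hnf4aos.

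Other falls among the 30 included the sulfotransferases Sult5a1 (-2.15 ± 0.37) and Sult2a8 (-1.32 ± 0.19), the sodium channel subunit Scnn1a (-1.33 ± 0.19), the fructose carrier Slc2a5 (-1.09 ± 0.19), the fructosamine kinase Fn3k (-1.08 ± 0.18), the mitochondrial carbonic anhydrase Car5a (-1.09 ± 0.19), Pdilt (-1.32 ± 0.20) and Carmil1 (-1.08 ± 0.20). Scnn1a measured 7.87, 7.65 and 7.45 in the Nemo KO livers, against 8.96, 8.98 and 9.04 in the WT livers, with all WT arrays within 0.1 of one another and no overlap. The receptor of succinate, Sucnr1, measured 5.60, 6.79 and 5.59 in the Nemo KO livers, against 7.89, 7.35 and 7.003 in the WT livers. Its Nemo KO values spread over more than 1 log2 unit, and its difference of -1.42 ± 0.33 (SE, adjusted p = 0.0245) was not called in every fit. Sucnr1 did not pass without Nemo KO replicates 1 or 3 or WT replicates 1 or 2 (adjusted p up to 0.0932), nor in the fit of the 6 arrays alone. The promoters of the 46 genes that fell at least 2-fold were poor in CpG: the median count was 4 per window over 50 windows of 38 genes, against 15 over all 19177 windows.

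Across gene families, the shares of genes called differed widely from the 8.51% and 4.08% of all genes. Between 46.8% and 50% of the receptors of the Fc, paired immunoglobulin-like and TREM families, of the actin-binding genes and of the matricellular proteins rose. Homeobox, FOX and SOX factors, proteasome subunits, ribosomal proteins, ion channels and hormone receptors stayed at or below the background share of rises. Carboxylesterases and lipases, alcohol and aldehyde dehydrogenases, hydroxysteroid dehydrogenases and hepatokines held the largest shares of falls.

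**Figure D2:**
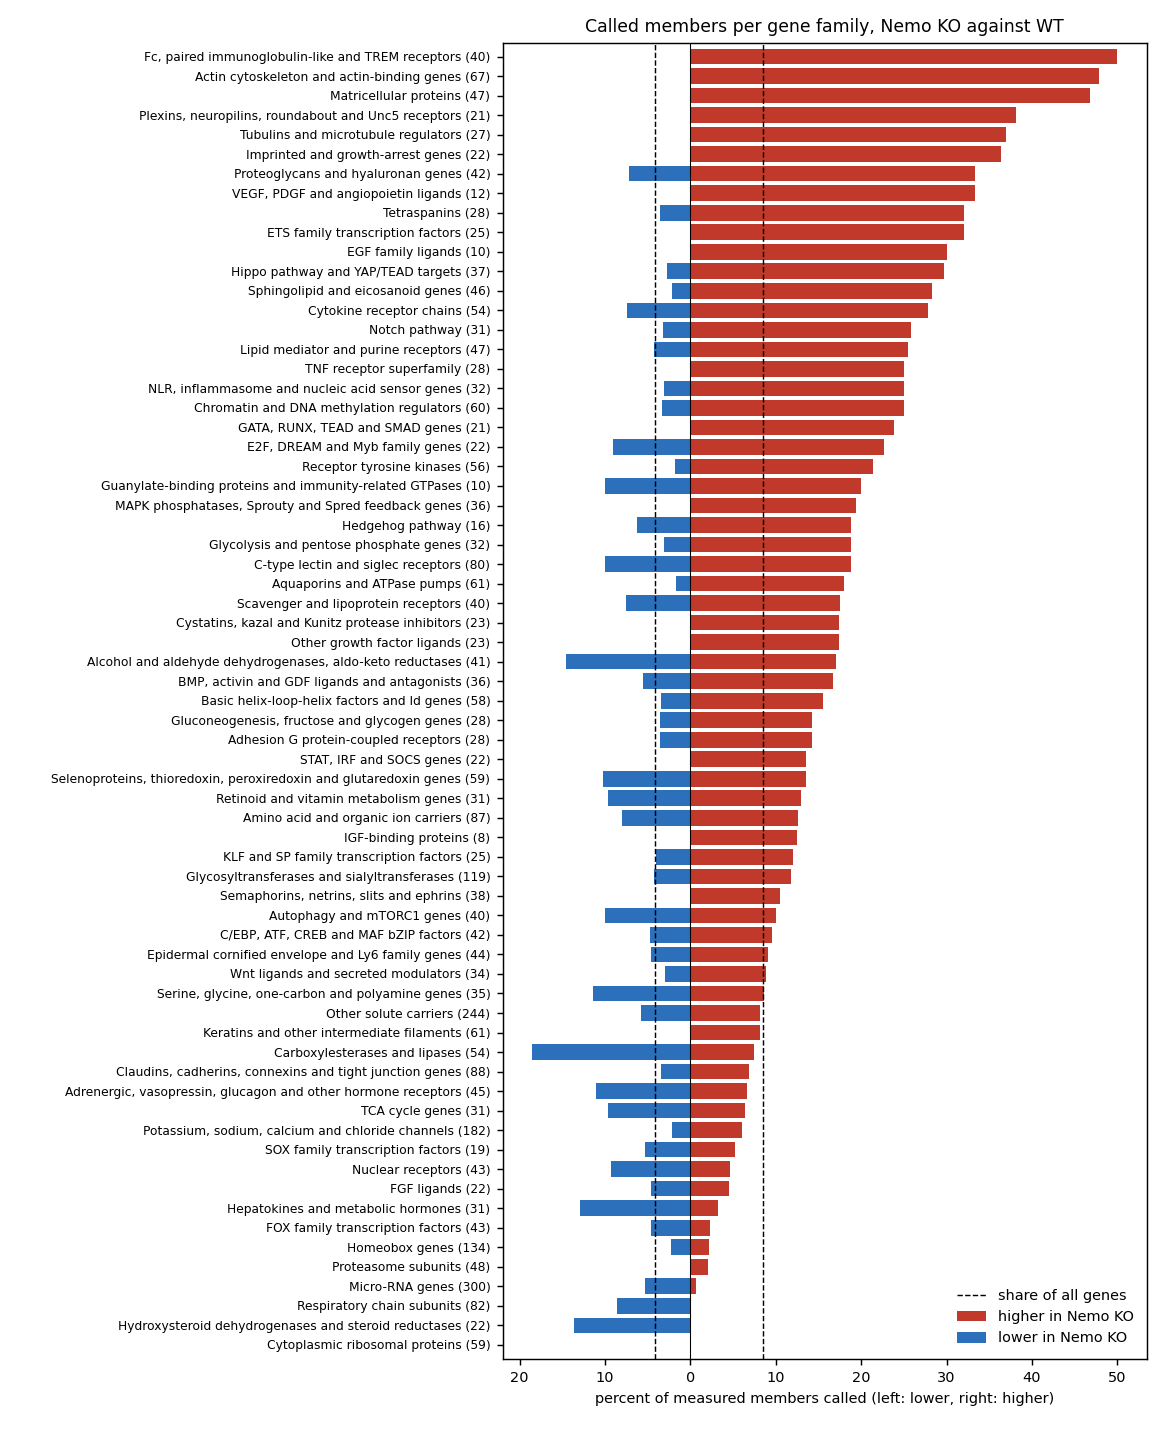
Share of measured members of 67 gene families with at least 8 members that were called lower (blue, to the left) and higher (red, to the right) in Nemo KO against WT, in percent. The number of measured members stands in parentheses, and dashed lines mark the shares over all genes, 4.08% and 8.51%; Fc and TREM receptors, actin-binding genes and matricellular proteins lead, and ribosomal proteins have no called member.

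Single ligands of several growth factor families rose in Nemo KO, and most members of each family were not called. Nrg1, a ligand of ErbB receptors, measured 7.62, 7.84 and 7.77 in the Nemo KO livers, against 6.257, 5.96 and 6.64 in the WT livers, and rose by 1.46 ± 0.21 (SE, adjusted p = 0.00258). Hgf, the hepatocyte mitogen made by stellate and endothelial cells, measured 9.37, 9.51 and 9.71 in the Nemo KO livers, against 8.24, 8.10 and 8.16 in the WT livers, and rose by 1.36 ± 0.12 (SE, adjusted p = 0.000426). The Nemo KO arrays of both genes lay at least 0.99 and 1.12 above the highest WT array. Of 10 EGF family ligands 3 rose and none fell (1 rise without Nemo KO replicates 2 or 3 or WT replicate 2). Of 12 VEGF, PDGF and angiopoietin ligands 4 rose (2 rises without Nemo KO replicate 1 or WT replicate 3). These were Pdgfa (1.08 ± 0.12), Pdgfc (0.88 ± 0.17), Pdgfd (0.90 ± 0.20) and Vegfc (0.50 ± 0.11). The call of Pdgfd was lost without Nemo KO replicates 1 or 3 or WT replicates 1 or 3 (adjusted p up to 0.0671). Vegfc did not pass without Nemo KO replicates 1 or 2 or WT replicate 3 (adjusted p up to 0.0789). Of 23 further growth factor ligands 4 rose: Hgf, the TAM receptor ligands Gas6 (0.84 ± 0.11) and Pros1 (0.49 ± 0.09), and progranulin, Grn (0.58 ± 0.07).

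The FGF family moved in both directions at single genes. Of 22 ligands Fgf12, an intracellular member, rose (0.57 ± 0.07) and Fgf1, the acidic form, fell (-0.99 ± 0.11 SE, adjusted p = 0.000847). Each is 4.55% of the family, against 8.51% of all genes that rose and 4.08% that fell. Fgf1 measured 9.09, 8.83 and 9.07 in the Nemo KO livers, against 9.90, 10.07 and 9.98 in the WT livers, without overlap. Among 36 BMP, activin and GDF ligands and antagonists 6 rose and 2 fell (1 fall without Nemo KO replicates 1 or 3, WT replicates 1 or 3, Nemo/TRAIL dKO replicates 1 or 2 or Nemo/TNFR1 dKO replicates 2 or 3 and 0 without Nemo KO replicate 2). Bmp8b measured 8.20, 8.29 and 8.16 in the Nemo KO livers, against 6.16, 6.21 and 6.05 in the WT livers, a rise of 2.08 ± 0.23 (SE, adjusted p = 0.000901), and Gdf10 (1.38 ± 0.15), Gdf2, the endothelial ligand BMP9 (0.82 ± 0.10), and the follistatin-like protein Fstl1 (1.79 ± 0.24) rose too. Of 34 Wnt ligands and secreted modulators 3 rose (8.82%) and 1 fell (2.94%), near the 8.51% and 4.08% of all genes. The median was -0.13, and falls numbered 2 without WT replicate 1 and 0 without Nemo KO replicate 2 or WT replicates 2 or 3. Those that rose were the antagonists Frzb (1.85 ± 0.20) and Dkk3 (0.82 ± 0.15) and the enhancer Rspo3 (0.45 ± 0.10). The ligand Wnt8a fell (-0.41 ± 0.09). The call of Rspo3 was lost without Nemo KO replicates 1, 2 or 3 or WT replicates 2 or 3 (adjusted p up to 0.088). Wnt8a did not pass without Nemo KO replicates 1 or 2 or WT replicates 2 or 3 (adjusted p up to 0.0572). Among 31 hepatokines and metabolic hormone genes 4 fell and Nampt, the NAD salvage enzyme, rose (0.53 ± 0.06). Besides Serpina12, Igfals, which carries IGF in the blood (-1.08 ± 0.13), and Itih1 (-0.44 ± 0.06) fell. The call of Ghr (-0.31 ± 0.08) was lost without Nemo KO replicates 2 or 3 or WT replicates 1, 2 or 3 (adjusted p up to 0.116), and in the fit of the 6 arrays alone.

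Receptor tyrosine kinases showed 12 rises and 1 fall among 56 genes (3 falls without WT replicate 3 or Nemo/TNFR1 dKO replicate 1 and 2 without Nemo KO replicate 2). The fall was that of the Hgf receptor. Met measured 8.95, 9.04 and 8.79 in the Nemo KO livers, against 9.55, 9.61 and 9.60 in the WT livers, a difference of -0.66 ± 0.12 (SE, adjusted p = 0.0074), so that ligand and receptor moved in opposite directions. Ntrk2, the receptor of BDNF, measured 8.14, 8.30 and 8.33 in the Nemo KO livers, against 5.52, 5.67 and 5.82 in the WT livers, a rise of 2.59 ± 0.10 (SE, adjusted p = 1.75e-05), the largest of its class. Its Nemo KO arrays lay 2.32 above the highest WT array, while its ligand Bdnf was not called (-0.03 ± 0.06, adjusted p = 0.801). Bdnf lay at a low level, between 5.51 and 5.60 in the 6 arrays. The PDGF receptors Pdgfrb (1.61 ± 0.20) and Pdgfra (1.41 ± 0.17) rose along with 3 of their ligands. The collagen receptors Ddr1 (1.56 ± 0.24) and Ddr2 (0.99 ± 0.10) rose beside the collagens Col4a1 (0.68 ± 0.11) and Col1a1 (1.74 ± 0.28). Axl, a TAM receptor for Gas6, rose by 1.22 ± 0.11, and Igf1r by 0.51 ± 0.08 where Igf1 was not called (-0.04 ± 0.07, adjusted p = 0.753). Erbb3, which binds Nrg1, was not called either (-0.31 ± 0.11, adjusted p = 0.124).

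The 26 ligand and receptor pairs were put together after the values of the families were seen, and are given as a description. In several pairs the receptor rose and the ligand did not pass: Robo1 with Slit2, Unc5b with Ntn1, Ntrk2 with Bdnf, Osmr with Osm, Ednrb with Edn1 and Ccr2 with Ccl2. Those ligands differed by 0.12 ± 0.20 (SE, adjusted p = 0.742) for Slit2, 0.25 ± 0.07 (SE, adjusted p = 0.0502) for Ntn1, -0.26 ± 0.08 (SE, adjusted p = 0.0931) for Osm, 0.33 ± 0.17 (SE, adjusted p = 0.264) for Edn1 and 0.39 ± 0.14 (SE, adjusted p = 0.109) for Ccl2. Like Bdnf, Slit2 (4.92 to 5.50 in the 6 arrays) and Osm (4.40 to 4.88) lay at low levels. Slit2 had the same value, 5.38, in all 3 Nemo KO arrays. Both partners rose for Cx3cl1 (1.18 ± 0.17) with Cx3cr1 (1.17 ± 0.16), Thbs1 with Cd36, Gas6 with Axl and Sema4d (1.06 ± 0.14) with Plxnb1 (0.53 ± 0.13). Plxnb1 did not pass without Nemo KO replicates 2 or 3 or WT replicates 2 or 3 (adjusted p up to 0.116). The TRAIL receptor gene Tnfrsf10b rose (1.62 ± 0.18), while Tnfsf10, the gene of TRAIL, was not called (-0.28 ± 0.17, adjusted p = 0.338). Csf1r, the macrophage growth factor receptor, rose by 0.71 ± 0.11, and its ligands Csf1 (0.30 ± 0.08, adjusted p = 0.0563) and Il34 (0.27 ± 0.12, adjusted p = 0.21) did not pass.

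**Figure D3:**
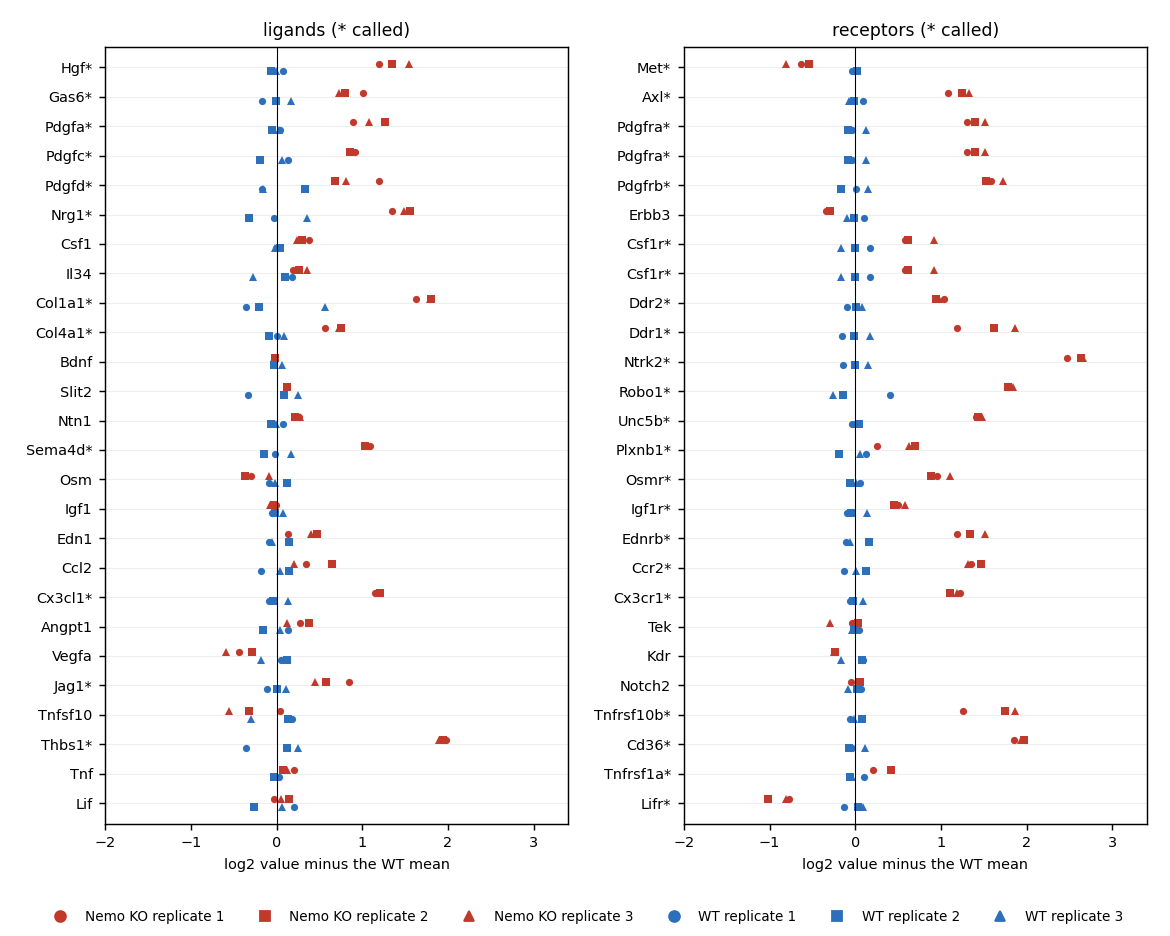
Log2 values minus the WT mean (x axis) of 26 ligands (left) and their receptors (right), a pair per row. Red marks are the 3 Nemo KO arrays, blue marks the 3 WT arrays, and a star marks a called gene. Hgf lies above and Met below WT, and Ntrk2, Robo1 and Unc5b lie more than 1.4 above it beside ligands that were not called.

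Among guidance genes, receptors and cues were counted apart. Of 21 plexin, neuropilin, roundabout and Unc5 genes 8 rose and none fell (5 rises without Nemo KO replicate 2 and 4 without Nemo KO replicate 3). Robo1 measured 9.55, 9.54 and 9.60 in the Nemo KO livers, against 8.17, 7.62 and 7.51 in the WT livers, a rise of 1.80 ± 0.15 (SE, adjusted p = 0.00039). Robo2 measured 7.75, 8.12 and 8.37 in the Nemo KO livers, against 6.35, 6.25 and 6.43 in the WT livers, a rise of 1.73 ± 0.21 (SE, adjusted p = 0.00131). The netrin receptor Unc5b measured 7.88, 7.90 and 7.95 in the Nemo KO livers, against 6.43, 6.51 and 6.47 in the WT livers, with the Nemo KO arrays almost level and a rise of 1.44 ± 0.20. WT replicate 1 was the highest WT array of Robo1, and no value overlapped. Of 38 semaphorin, netrin, slit and ephrin genes 4 rose (10.5%, against 8.51% of all genes). All were semaphorins: Sema4d, Sema5a (0.79 ± 0.14), Sema6d (0.65 ± 0.10) and Sema3f (0.55 ± 0.09).

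Cytokine receptor chains moved both ways. Of 54 chains 15 rose and 4 fell (2 falls without Nemo KO replicates 2 or 3 or WT replicates 1 or 2). Their shares were 27.8% and 7.41%, against 8.51% and 4.08% of all genes. Osmr, which binds oncostatin M together with gp130, measured 7.96, 7.89 and 8.11 in the Nemo KO livers, against 7.06, 6.95 and 7.01 in the WT livers, and rose by 0.98 ± 0.13 (SE, adjusted p = 0.0018). Lifr, another partner of gp130, measured 10.999, 10.76 and 10.97 in the Nemo KO livers, against 11.65, 11.81 and 11.87 in the WT livers, and fell by 0.87 ± 0.09 (SE, adjusted p = 0.000713). No value overlapped in either gene. Csf2rb2 (1.23 ± 0.13), Csf2ra (0.92 ± 0.13) and Il10rb (0.89 ± 0.11) rose, and the IL-1 receptor accessory chain Il1rap fell (-0.86 ± 0.11), as did Il15ra (-0.84 ± 0.18). The call of Il15ra was lost without Nemo KO replicates 2 or 3 or WT replicates 1 or 2 (adjusted p up to 0.0631). Of 28 TNF receptor superfamily genes 7 rose and none fell (4 rises without Nemo KO replicates 2 or 3 or WT replicate 3). Tnfrsf10b, the ectodysplasin receptor Eda2r (1.45 ± 0.25), the death receptor Tnfrsf21 (1.26 ± 0.11) and the TWEAK receptor Tnfrsf12a (0.90 ± 0.15) led.

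G protein-coupled receptors of lipid mediators and of hormones were counted separately. Among 47 lipid mediator and purine receptor genes 12 rose and 2 fell (0 falls without Nemo KO replicates 2 or 3 or WT replicate 2 and 1 without Nemo KO replicate 1 or WT replicate 3). The rises were led by the anaphylatoxin receptors C3ar1 (1.55 ± 0.14) and C5ar1 (1.03 ± 0.12), the proton sensor Gpr65 (1.47 ± 0.19) and the UDP receptor P2ry6 (1.02 ± 0.17). The pyrimidine receptor P2ry4 fell (-1.05 ± 0.23). P2ry4 did not pass without Nemo KO replicates 2 or 3 or WT replicates 2 or 3 (adjusted p up to 0.0734). Of 45 adrenergic, vasopressin, glucagon and other hormone receptor genes 3 rose and 5 fell (2 falls without Nemo KO replicates 2 or 3 or WT replicate 1, 1 without WT replicate 2 and 3 without Nemo KO replicate 1). Their shares were 6.67% and 11.1%, against 8.51% and 4.08% of all genes. Npr2, the guanylate cyclase receptor of CNP, measured 8.96, 8.73 and 8.60 in the Nemo KO livers, against 9.74, 9.73 and 9.61 in the WT livers, and fell by 0.93 ± 0.10 (SE, adjusted p = 0.000937), while Npr3, which clears natriuretic peptides, rose by 0.65 ± 0.11 (SE, adjusted p = 0.00703). The endothelin receptor Ednrb measured 9.26, 9.41 and 9.59 in the Nemo KO livers, against 7.97, 8.23 and 8.01 in the WT livers, a rise of 1.35 ± 0.15 (SE, adjusted p = 0.000851) without overlap. Of 28 adhesion receptors 4 rose and 1 fell (2 falls without WT replicate 3). These are 14.3% and 3.57%, against 8.51% and 4.08% of all genes. The fall was that of Adgrf1, and the rises included Adgre1, the macrophage antigen F4/80 (1.06 ± 0.11), Adgra2 (0.60 ± 0.07) and Adgrl1 (0.58 ± 0.10). Of 43 nuclear receptors 2 rose and 4 fell (1 rise without Nemo KO replicate 3 or WT replicates 1 or 2 and 0 without Nemo KO replicates 1 or 2). These are 4.65% and 9.3%, against 8.51% and 4.08% of all genes. The falls were those of the bile acid responsive repressor Nr0b2 (-1.12 ± 0.16), Esrrg (-0.90 ± 0.17), the thyroid hormone receptor Thrb (-0.60 ± 0.11) and Nr5a2 (-0.40 ± 0.07). The call of Pparg (0.91 ± 0.20) was lost without Nemo KO replicates 1 or 2 or WT replicates 2 or 3 (adjusted p up to 0.0723), and in the fit of the 6 arrays alone.

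Innate receptors of myeloid cells held the highest share of rises among the 67 families: 20 of 40 Fc, paired immunoglobulin-like and TREM receptor genes rose and none fell, with a median of 0.42 (1 fall without WT replicate 2 or Nemo KO replicate 3). Lilr4b measured 8.74, 8.79 and 8.50 in the Nemo KO livers, against 6.44, 7.11 and 6.69 in the WT livers, a rise of 1.93 ± 0.20 (SE, adjusted p = 0.00071), with every Nemo KO array above every WT array. Lilrb4a (1.32 ± 0.14), the adaptor Tyrobp (1.30 ± 0.12) and the CD47 receptor Sirpa (1.17 ± 0.10) followed. C-type lectins and siglecs moved both ways, 15 up and 8 down of 80 (4 falls without WT replicates 1, 2 or 3, 5 without Nemo KO replicate 1 and 3 without Nemo KO replicates 2 or 3). The β-glucan receptor Clec7a (2.08 ± 0.19), Clec12a (1.42 ± 0.15), the collagen receptor Mrc2 (1.17 ± 0.17) and Clec4n (1.14 ± 0.10) rose, and Clec2d, a ligand of NK receptors, fell (-0.85 ± 0.11 SE, adjusted p = 0.00183). Of 40 scavenger and lipoprotein receptors 7 rose and 3 fell (4 rises without Nemo KO replicate 3, and 1 fall without Nemo KO replicates 2 or 3). The fatty acid receptor Cd36 measured 10.40, 10.52 and 10.49 in the Nemo KO livers, against 8.51, 8.47 and 8.66 in the WT livers (rise 1.92 ± 0.13). The haemoglobin receptor Cd163 measured 5.08, 5.31 and 5.64 in the Nemo KO livers, against 6.57, 6.94 and 6.57 in the WT livers (difference -1.35 ± 0.19), neither with overlap. Havcr2 (1.08 ± 0.13) rose as well.

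Sensors of nucleic acids and bacterial products rose in part. Of 32 genes 8 rose and 1 fell (5 rises without WT replicates 2 or 3 and 4 without Nemo KO replicates 1 or 3, and 0 falls without Nemo KO replicates 2 or 3). Sting1, the adaptor of cytosolic DNA sensing, measured 8.02, 7.81 and 8.07 in the Nemo KO livers, against 6.61, 6.90 and 6.97 in the WT livers, and rose by 1.14 ± 0.16 (SE, adjusted p = 0.00256), with no overlap. Naip5 (0.93 ± 0.13), Ifi205 (0.92 ± 0.17) and Zbp1, a sensor in necroptosis (1.01 ± 0.21), rose, and Nlrp6 fell (-0.57 ± 0.11). Zbp1 did not pass without Nemo KO replicate 1 or WT replicate 2 (adjusted p up to 0.0567). The call of Nlrp6 was lost without Nemo KO replicates 2 or 3 (adjusted p up to 0.0561). Of 10 guanylate-binding and immunity-related GTPase genes 2 rose and 1 fell (1 rise without Nemo KO replicates 1, 2 or 3 or WT replicate 2, and 0 falls without Nemo KO replicates 2 or 3 or WT replicates 1 or 3). Gbp3 rose by 0.96 ± 0.16 and Gbp11 fell (-0.65 ± 0.14). Gbp11 did not pass without Nemo KO replicates 2 or 3 or WT replicates 1 or 3 (adjusted p up to 0.0798).

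Matricellular proteins, secreted modulators of cell and matrix contacts, rose in 22 of 47 cases and none fell, with a median of 0.44 against -0.05 over all genes (1 fall without WT replicate 3). Tnc, tenascin C, measured 6.90, 7.68 and 7.48 in the Nemo KO livers, against 4.93, 4.94 and 5.62 in the WT livers, a rise of 2.19 ± 0.37 (SE, adjusted p = 0.00613). Thbs1, which releases TGF-β from its latent form, measured 8.47, 8.42 and 8.38 in the Nemo KO livers, against 6.12, 6.60 and 6.73 in the WT livers, a rise of 1.94 ± 0.30 (SE, adjusted p = 0.00437). The Nemo KO arrays of both stood clear of all WT arrays, by 1.28 and 1.65. Sparcl1 rose by 1.96 ± 0.21 and Ccn2, connective tissue growth factor, by 1.62 ± 0.33. The call of Ccn2 was lost without Nemo KO replicate 3 (adjusted p = 0.0547), and in the fit of the 6 arrays alone. Of 42 proteoglycan and hyaluronan genes 14 rose and 3 fell (1 fall without Nemo KO replicates 1 or 3 or WT replicate 3). Lum measured 9.90, 9.98 and 10.29 in the Nemo KO livers, against 7.44, 7.42 and 8.12 in the WT livers (rise 2.40 ± 0.29), and Hapln1, which links hyaluronan to proteoglycans, rose by 1.33 ± 0.24. The glypicans parted, Gpc6 rising (1.09 ± 0.13) and Gpc4 falling (-0.36 ± 0.07). Of 23 genes of the cystatin, kazal, Kunitz and other inhibitor families 4 rose, with Itih5, which binds hyaluronan, at 1.498 ± 0.20, Wfdc17 at 0.44 ± 0.08 and Cst3 at 0.43 ± 0.07. Of 8 IGF-binding proteins Igfbp7 alone rose (0.77 ± 0.08).

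Transcription factors changed in a few families. ETS factors rose in 8 of 25 cases and none fell (5 rises without Nemo KO replicates 2 or 3). Spi1, the myeloid factor PU.1, measured 8.90, 9.03 and 8.99 in the Nemo KO livers, against 8.03, 8.08 and 7.69 in the WT livers, a rise of 1.04 ± 0.10 (SE, adjusted p = 0.000683). Ets2 measured 9.54, 9.97 and 9.73 in the Nemo KO livers, against 8.59, 8.72 and 8.63 in the WT livers, a rise of 1.10 ± 0.12 (SE, adjusted p = 0.000815). In both, the Nemo KO and WT arrays were separated by 0.81. Elf4 (0.83 ± 0.15) and the epithelial factor Elf3 (0.86 ± 0.18) rose. Elf3 did not pass without Nemo KO replicates 2 or 3 or WT replicate 3 (adjusted p up to 0.0696). Of 22 E2F, DREAM and Myb genes 5 rose and 2 fell (3 rises without Nemo KO replicates 2 or 3, WT replicates 1, 2 or 3 or Nemo/TRAIL dKO replicates 1 or 2, and 1 fall without Nemo KO replicates 1, 2 or 3, WT replicates 1 or 2 or Nemo/TRAIL dKO replicates 1 or 2). Foxm1, the activator of late cell cycle genes, rose by 1.52 ± 0.21 (SE, adjusted p = 0.00247). The pocket proteins parted: Rbl1 (p107) rose by 1.13 ± 0.17 and Rbl2 (p130), a part of the DREAM repressor of resting cells, fell by 0.59 ± 0.11. The call of E2f1 (0.78 ± 0.20) was lost without Nemo KO replicates 2 or 3, WT replicates 1, 2 or 3, Nemo/TRAIL dKO replicates 1 or 2 or Nemo/TNFR1 dKO replicate 1 (adjusted p up to 0.138), and after quantile normalization or after median centring.

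Stress-responsive and growth-related factors rose singly. Atf3 measured 8.93, 8.92 and 8.38 in the Nemo KO livers, against 6.99, 6.39 and 6.62 in the WT livers, a rise of 2.07 ± 0.31 (SE, adjusted p = 0.00319). Klf6 measured 8.63, 8.83 and 8.28 in the Nemo KO livers, against 6.80, 6.93 and 6.60 in the WT livers, a rise of 1.80 ± 0.25 (SE, adjusted p = 0.00219). In both, Nemo KO replicate 3 was the lowest Nemo KO array, and lay more than 1.2 above all WT arrays. Klf10 (1.14 ± 0.19), Creb3l1 (1.15 ± 0.17) and the oxidative stress factor Nfe2l2, NRF2 (0.94 ± 0.07), rose. Klf1 (-0.58 ± 0.14) did not pass without Nemo KO replicates 1, 2 or 3, Nemo/TRAIL dKO replicates 1 or 2 or Nemo/TNFR1 dKO replicate 2 (adjusted p up to 0.108), nor in the fit of the 6 arrays alone. Of 21 GATA, RUNX, TEAD and SMAD genes 5 rose (3 rises without Nemo KO replicate 1 or WT replicates 1 or 3 and 2 without Nemo KO replicate 3). Runx1 rose by 1.21 ± 0.16 (SE, adjusted p = 0.00191). The call of Smad7 (0.82 ± 0.18) was lost without Nemo KO replicate 3 or WT replicates 2 or 3 (adjusted p up to 0.065), and in the fit of the 6 arrays alone. Tead1 (0.69 ± 0.16) did not pass without Nemo KO replicates 1, 2 or 3 or WT replicates 1 or 3 (adjusted p up to 0.0893), nor in the fit of the 6 arrays alone. Of 22 STAT, IRF and SOCS genes 3 rose. The interferon factors Irf7 (1.09 ± 0.20) and Irf8 (0.96 ± 0.14) rose. Among 58 basic helix-loop-helix and Id genes 9 rose and 2 fell (5 rises without Nemo KO replicate 3 or WT replicates 2 or 3 and 4 without Nemo KO replicate 2). Id1, an inhibitor of this family, rose by 1.13 ± 0.15, Tcf21, a mesenchymal factor, by 1.07 ± 0.17 and the Notch target Hey1 by 0.59 ± 0.10. The call of Bhlhe40 (1.17 ± 0.26) was lost without Nemo KO replicates 1 or 2 or WT replicates 1 or 3 (adjusted p up to 0.0828), and in the fit of the 6 arrays alone.

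Regulators of hepatocyte metabolism were among the transcription factors that fell. Mlxipl, the carbohydrate response factor ChREBP, measured 10.97, 10.80 and 10.74 in the Nemo KO livers, against 11.56, 11.70 and 11.49 in the WT livers, and fell by 0.75 ± 0.14 (SE, adjusted p = 0.00898). Hes6 measured 8.68, 8.47 and 8.88 in the Nemo KO livers, against 10.17, 9.52 and 9.60 in the WT livers, and fell by 1.09 ± 0.20 (SE, adjusted p = 0.00941). Cebpa (-0.67 ± 0.15 SE, adjusted p = 0.0239), Foxa1 (-0.62 ± 0.15 SE, adjusted p = 0.0284) and Foxa2 (-0.61 ± 0.14 SE, adjusted p = 0.0211) fell. Cebpa did not pass without Nemo KO replicates 1 or 3 or WT replicates 1 or 2 (adjusted p up to 0.0925). The call of Foxa1 was lost without Nemo KO replicates 1, 2 or 3 or WT replicates 2 or 3 (adjusted p up to 0.103). Foxa2 did not pass without Nemo KO replicates 1, 2 or 3 or WT replicates 2 or 3 (adjusted p up to 0.0728). Foxa1 and Foxa2 were the FOX genes that fell, of 43, and Foxm1 the one that rose. Of 19 SOX genes Sox4 rose (0.76 ± 0.15) and Sox5 fell (-0.50 ± 0.08). Of 134 homeobox genes 3 rose and 3 fell, below the shares over all genes, and Hopx, an atypical member that binds no DNA, measured 7.78, 7.59 and 7.71 in the Nemo KO livers, against 8.62, 8.53 and 8.66 in the WT livers, a difference of -0.91 ± 0.07 (SE, adjusted p = 0.000338). Zeb2 (0.66 ± 0.10) and Pbx3 (0.48 ± 0.08) rose and Zfhx4 fell (-0.42 ± 0.08).

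**Figure D4:**
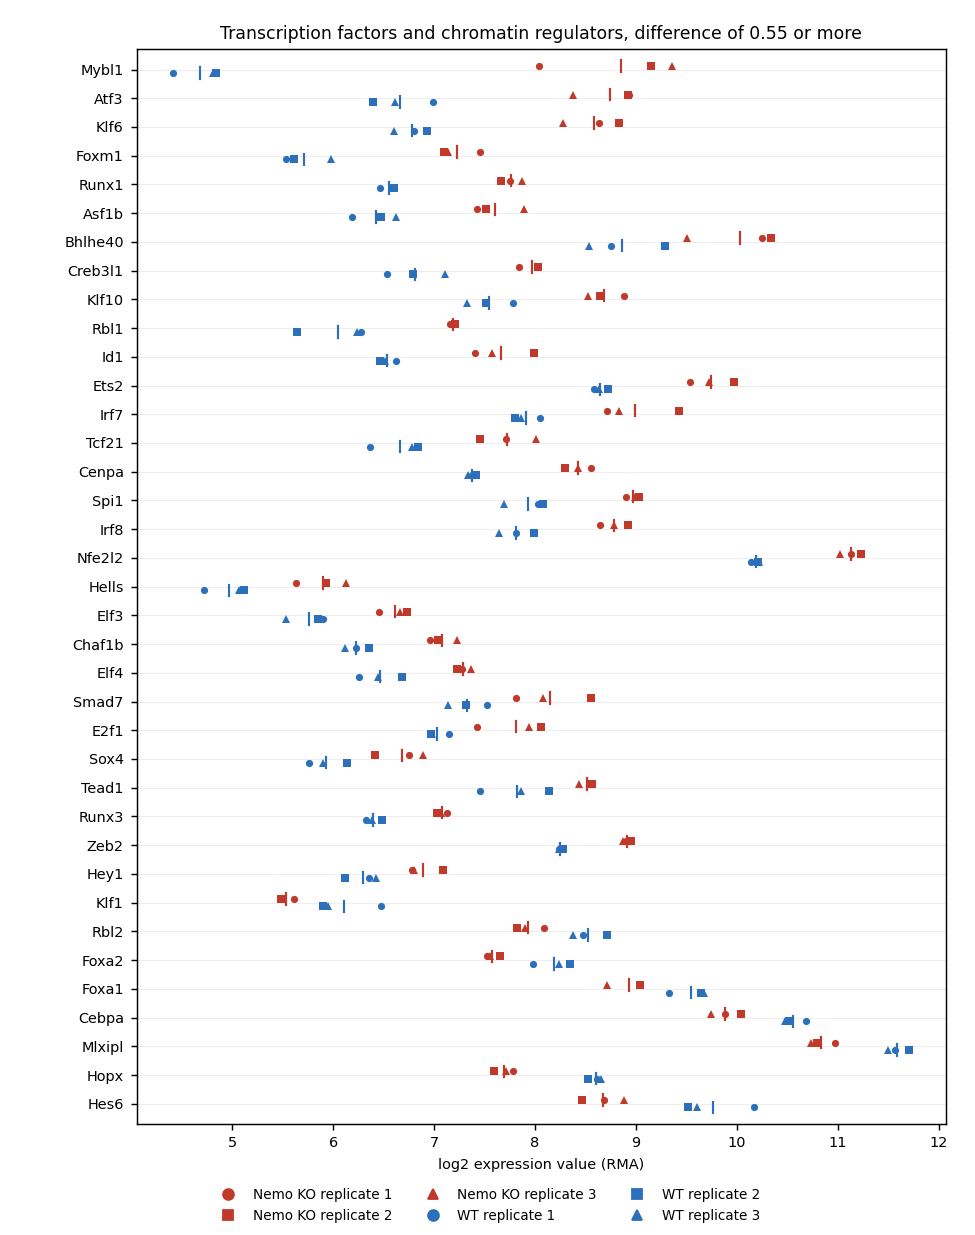
Log2 expression values (x axis) of 37 transcription factor and chromatin regulator genes that were called, belong to the leading members of their families and differed by 0.55 or more. Red marks are the 3 Nemo KO arrays, blue marks the 3 WT arrays and ticks the group means. Mybl1, Atf3 and Klf6 rose most, and Hes6 and Hopx fell most.

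Chromatin and DNA methylation regulators rose in 15 of 60 cases and fell in 2 (9 rises without Nemo KO replicate 2 and 6 without Nemo KO replicate 3, and 1 fall without Nemo KO replicates 1, 2 or 3, WT replicates 1 or 2, Nemo/TRAIL dKO replicates 1 or 2 or Nemo/TNFR1 dKO replicate 2). The members that led serve replicating or dividing chromatin: the histone chaperones Asf1b (1.18 ± 0.17) and Chaf1b (0.84 ± 0.12), the centromeric histone Cenpa (1.05 ± 0.17) and the helicase Hells (0.93 ± 0.18). Sirt7, a deacetylase of the nucleolus, fell (-0.48 ± 0.08 SE, adjusted p = 0.00528). The call of Hells was lost without Nemo KO replicate 3 (adjusted p = 0.0522).

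Signalling pathways were described by their components and known targets. Of 37 Hippo pathway genes and YAP/TEAD targets 11 rose and 1 fell, with a median of 0.27 (0 falls without Nemo KO replicate 3 or WT replicates 1 or 3 and 2 without WT replicate 2). Those that rose most were targets or secreted products: Fstl1, Ccn2, the membrane repair protein Myof (1.51 ± 0.18) and Axl. Of 31 Notch pathway genes 8 rose and 1 fell (4 rises without Nemo KO replicate 3 or WT replicate 2 and 5 without Nemo KO replicates 1 or 2 or WT replicate 3, and 0 falls without Nemo KO replicate 2). They included Hey1, the coactivator Maml2 (0.58 ± 0.10), the ligand Jag1 (0.62 ± 0.14) and the protease Adam10 (0.50 ± 0.10), and the ligand Dll4 fell (-0.39 ± 0.08). Jag1 did not pass without Nemo KO replicates 1 or 2 or WT replicates 1 or 2 (adjusted p up to 0.0756). The call of Adam10 was lost without Nemo KO replicate 3 (adjusted p = 0.0604). Dll4 did not pass without Nemo KO replicate 2 (adjusted p = 0.0508). Of 16 Hedgehog genes 3 rose and 1 fell (1 rise without Nemo KO replicates 1 or 3 or WT replicates 1 or 2). The ligand Ihh rose by 0.79 ± 0.14 (SE, adjusted p = 0.00701) and the coreceptor Gas1 fell by 0.93 ± 0.12 (SE, adjusted p = 0.0016). Ihh measured 8.09, 8.43 and 7.94 in the Nemo KO livers, against 7.47, 7.26 and 7.36 in the WT livers, and Gas1 7.72, 7.48 and 7.50 in the Nemo KO livers, against 8.24, 8.67 and 8.58 in the WT livers. No value overlapped in either. Feedback genes of the MAP kinases rose in 7 of 36 cases and none fell (4 rises without Nemo KO replicate 2, and 1 fall without Nemo/TNFR1 dKO replicate 1). The phosphatase Dusp8 rose by 1.37 ± 0.16 (SE, adjusted p = 0.00124), Dusp5 by 0.62 ± 0.12 and Spry1 by 0.57 ± 0.10.

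Among cytoskeletal genes, the share of rises was above the 8.51% of all genes for actin and microtubule genes, and not for keratins. Of 67 actin and actin-binding genes 32 rose and none fell, with a median of 0.37 (4 falls without WT replicate 1). Pls1, a bundling protein of microvilli, measured 7.92, 8.20 and 8.01 in the Nemo KO livers, against 6.12, 5.82 and 6.005 in the WT livers, a rise of 2.06 ± 0.13 (SE, adjusted p = 0.000197). Tagln2 measured 9.10, 9.53 and 9.94 in the Nemo KO livers, against 7.68, 7.85 and 7.95 in the WT livers, a rise of 1.70 ± 0.21 (SE, adjusted p = 0.00143). The capping protein Capg (1.47 ± 0.17) and the cytokinesis protein Anln followed. Of 27 tubulins and microtubule regulators 10 rose and none fell. Tubb6 measured 8.48, 8.79 and 9.05 in the Nemo KO livers, against 6.70, 6.41 and 6.60 in the WT livers (rise 2.21 ± 0.26), Tuba8 rose by 1.99 ± 0.19 and the tubulin-binding Stmn1 by 1.95 ± 0.18. In Pls1, Tagln2 and Tubb6 no value overlapped.

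Of 61 keratins and other intermediate filaments 5 rose, or 8.2%, with a median of -0.06 (3 rises without Nemo KO replicates 2 or 3). They included Vim (1.26 ± 0.22), the hepatocyte pair Krt8 (1.10 ± 0.15) and Krt18 (0.99 ± 0.20), and lamin A, Lmna (0.57 ± 0.09). The call of Krt18 was lost without Nemo KO replicates 2 or 3 (adjusted p up to 0.0533). Among 88 junction genes 6 rose and 3 fell (3 rises without Nemo KO replicate 3 or WT replicate 2, and 1 fall without Nemo KO replicates 1 or 2 or WT replicate 2 and 0 without Nemo KO replicate 3). Their shares, 6.82% and 3.41%, lie below the 8.51% and 4.08% of all genes. The connexins parted: Gja1 (connexin 43) measured 8.10, 8.43 and 8.21 in the Nemo KO livers, against 6.73, 6.58 and 6.93 in the WT livers, a rise of 1.497 ± 0.16 (SE, adjusted p = 0.000815), while Gjb1 (connexin 32), the main connexin of hepatocytes, measured 10.07, 10.11 and 9.999 in the Nemo KO livers, against 10.58, 10.40 and 10.49 in the WT livers, a difference of -0.43 ± 0.09 (SE, adjusted p = 0.0175). Both were without overlap. Gjb1 did not pass without Nemo KO replicate 3 or WT replicate 1 (adjusted p up to 0.0709). Jam2 (1.03 ± 0.11) and the foetal claudin Cldn6 (0.93 ± 0.17) rose. Of 28 tetraspanins 9 rose and 1 fell (0 falls without Nemo KO replicates 1, 2 or 3, WT replicates 2 or 3 or Nemo/TNFR1 dKO replicate 2 and 2 without Nemo/TRAIL dKO replicates 1 or 2). Cd63 (1.52 ± 0.28), Cd9 (1.34 ± 0.15) and Cd53 (1.23 ± 0.16) rose most. The call of Tspan8 (1.11 ± 0.28) was lost without Nemo KO replicates 1, 2 or 3, WT replicates 1, 2 or 3 or Nemo/TNFR1 dKO replicate 2 (adjusted p up to 0.119).

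Enzymes of hepatocyte metabolism changed by subgroup. Of 54 carboxylesterases and lipases 4 rose and 10 fell (2 rises without Nemo KO replicates 2 or 3). The falls were led by carboxylesterases: Ces1e measured 9.32, 9.08 and 8.58 in the Nemo KO livers, against 10.50, 10.38 and 10.36 in the WT livers (difference -1.42 ± 0.18), Ces3b 11.52, 11.41 and 11.15 in the Nemo KO livers, against 12.55, 12.55 and 12.50 in the WT livers (difference -1.17 ± 0.12), and Ces4a (-1.34 ± 0.13) and Ces2a (-1.25 ± 0.12) fell as well. Members of the carboxylesterase family can be close in sequence, so signal shared between them is uncertain. The rises were led by lipases, with lipoprotein lipase Lpl measuring 10.22, 9.95 and 10.01 in the Nemo KO livers, against 8.55, 7.79 and 8.48 in the WT livers (rise 1.78 ± 0.20) and the phospholipase Pla2g4a rising by 0.68 ± 0.09. None of these genes overlapped between the groups. Of 22 hydroxysteroid dehydrogenases and steroid reductases 3 fell and none rose (1 fall without Nemo KO replicate 2, and 1 rise without Nemo/TNFR1 dKO replicates 1 or 2). They were Hsd3b5, Hsd3b3 (-0.81 ± 0.10) and Hsd11b1 (-0.58 ± 0.12). Hsd11b1 did not pass without Nemo KO replicate 2 (adjusted p = 0.0523). Of 41 alcohol and aldehyde dehydrogenases and aldo-keto reductases 7 rose and 6 fell (3 falls without Nemo KO replicate 2). The mitochondrial Aldh1b1 (1.20 ± 0.15), the proline enzyme Aldh18a1 (1.07 ± 0.19) and Akr1b10 (0.60 ± 0.10) rose, and the neighbours Akr1c12 (-0.67 ± 0.11), Akr1c13 (-0.50 ± 0.10) and Akr1c14 (-0.70 ± 0.13) fell. The Akr1c genes did not all fall: Akr1c18 had the largest rise of the list (2.51 ± 0.59), although it was not called in every fit.

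Glucose and energy genes showed isoform differences. Of 32 glycolysis and pentose phosphate genes 6 rose and 1 fell (3 rises without Nemo KO replicates 2 or 3 or WT replicate 1, and 0 falls without Nemo KO replicates 2 or 3 or WT replicates 1 or 2 and 2 without Nemo/TNFR1 dKO replicate 2). Pfkp, the platelet form of phosphofructokinase, rose (0.63 ± 0.13) and Pfkm, the muscle form, fell (-0.39 ± 0.10). Hexokinase 2, Hk2, little used by resting hepatocytes, measured 6.15, 6.322 and 6.28 in the Nemo KO livers, against 5.70, 5.59 and 5.77 in the WT livers, a rise of 0.56 ± 0.11 (SE, adjusted p = 0.0108), and the pentose phosphate enzyme Pgd rose by 0.70 ± 0.11. The call of Pfkp was lost without Nemo KO replicates 1 or 3 or WT replicate 1 (adjusted p up to 0.0604). Pfkm did not pass without Nemo KO replicates 2 or 3 or WT replicates 1 or 2 (adjusted p up to 0.105), nor in the fit of the 6 arrays alone. Of 28 gluconeogenesis, fructose and glycogen genes 4 rose and 1 fell (2 rises without Nemo KO replicates 2 or 3 or WT replicate 2, and 2 falls without Nemo/TNFR1 dKO replicates 1 or 2). Their shares were 14.3% and 3.57%, against 8.51% and 4.08% of all genes. The brain phosphorylase Pygb (0.98 ± 0.18) and Pgm2 (0.80 ± 0.11) rose and Galt fell (-0.52 ± 0.10). The pyruvate dehydrogenase kinases parted: Pdk4 measured 9.68, 9.67 and 9.44 in the Nemo KO livers, against 8.27, 8.11 and 8.59 in the WT livers (rise 1.28 ± 0.20), and Pdk1 8.05, 8.02 and 7.92 in the Nemo KO livers, against 8.98, 8.97 and 8.68 in the WT livers (difference -0.88 ± 0.14), with no overlap in either. Of 82 respiratory chain subunits none rose and 7 fell (0 falls without Nemo KO replicates 2 or 3 or WT replicate 1 and 1 without Nemo KO replicate 1 or WT replicate 2). The falls were 8.54% of the subunits, against 4.08% of all genes. Of 59 cytoplasmic ribosomal proteins none passed at an adjusted p below 0.05, where 5 had an unadjusted p below 0.05, and the median was -0.02. Of 48 proteasome subunits 1 rose, Psmd8 (0.39 ± 0.08). The call of Psmd8 was lost without Nemo KO replicates 2 or 3 or WT replicate 2 (adjusted p up to 0.0638).

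Lipid mediator, vitamin and one-carbon genes followed. Of 46 sphingolipid and eicosanoid genes 13 rose and 1 fell (8 rises without Nemo KO replicate 3, and 0 falls without Nemo KO replicates 1, 2 or 3 or WT replicates 1, 2 or 3, 3 without Nemo/TRAIL dKO replicates 1 or 2 and 2 without Nemo/TNFR1 dKO replicate 1). The prostaglandin D synthase Hpgds (1.47 ± 0.16), the sphingomyelinase Smpd3 (1.38 ± 0.20), Ptgr1 (1.07 ± 0.21) and the thromboxane synthase Tbxas1 (0.86 ± 0.16) were among those that rose. Ptgr1 did not pass without Nemo KO replicate 3 (adjusted p = 0.0561). Of 31 retinoid and vitamin genes 4 rose and 3 fell (2 rises without Nemo KO replicate 2 and 1 without Nemo KO replicate 3, and 1 fall without Nemo KO replicates 2 or 3 or WT replicates 1 or 2). Their shares were 12.9% and 9.68%, against 8.51% and 4.08% of all genes. The retinol dehydrogenase Dhrs9 measured 9.44, 9.77 and 9.88 in the Nemo KO livers, against 7.75, 7.44 and 7.65 in the WT livers, a rise of 2.08 ± 0.18 (SE, adjusted p = 0.000426) without overlap, and the vitamin D hydroxylase Cyp2r1 fell (-0.41 ± 0.08). Of 35 serine, one-carbon and polyamine genes 3 rose and 4 fell (2 falls without Nemo KO replicates 2 or 3). The mitochondrial Mthfd1l (0.70 ± 0.12) and the polyamine catabolic genes Sat1 (0.98 ± 0.14) and Smox (0.70 ± 0.13) rose, while Shmt1 (-0.60 ± 0.11) and the glycine decarboxylase Gldc (-0.53 ± 0.08) fell.

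Solute carriers rose and fell within the same family. Of 87 amino acid and organic ion carriers 11 rose and 7 fell. Within the SLC13 family, Slc13a5, the sodium citrate carrier, measured 7.51, 7.63 and 7.47 in the Nemo KO livers, against 6.19, 5.98 and 6.02 in the WT livers (rise 1.47 ± 0.13), Slc13a3 rose by 1.47 ± 0.14, and Slc13a2 fell. The neutral amino acid carrier Slc1a4 (1.66 ± 0.18) and the creatine carrier Slc6a8 (1.38 ± 0.12) rose, and the betaine carrier Slc6a12 (-0.61 ± 0.12) and Slc22a30 (-0.81 ± 0.13) fell. Of 244 further solute carriers 20 rose and 14 fell, shares near those of all genes (9 falls without Nemo KO replicate 3 or WT replicate 1 and 8 without Nemo KO replicate 2). Slc16a5 (1.75 ± 0.25), the phosphate carrier Slc20a1 (1.39 ± 0.14), Slc15a3 (1.22 ± 0.11) and Slc25a24 (0.95 ± 0.12) rose, and Slc39a2 (-0.95 ± 0.11) and Slc17a2 (-0.94 ± 0.12) fell.

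Aquaporin 7, a glycerol channel of fat cells, measured 7.95, 7.61 and 8.06 in the Nemo KO livers, against 5.55, 5.92 and 5.53 in the WT livers, a rise of 2.21 ± 0.24 (SE, adjusted p = 0.000906), the largest among 61 aquaporin and ATPase pump genes, of which 11 rose and 1 fell (7 rises without WT replicate 1, 5 without Nemo KO replicate 2 or WT replicate 2, 6 without WT replicate 3 and 4 without Nemo KO replicate 3, and 2 falls without WT replicates 2 or 3 or Nemo/TNFR1 dKO replicates 1 or 3 and 0 without Nemo KO replicates 1 or 3). The phospholipid flippases Atp8a1 (0.74 ± 0.09) and Atp8b2 (0.67 ± 0.11) rose too. Among 182 ion channel genes 11 rose and 4 fell, near the background (6 rises without WT replicate 2 and 7 without Nemo KO replicates 2 or 3, and 2 falls without WT replicate 2 or Nemo/TNFR1 dKO replicate 2 and 7 without Nemo/TRAIL dKO replicates 1 or 2). The scramblase Ano6 (1.08 ± 0.12), Ano10 (0.76 ± 0.12) and the mechanosensor Piezo1 (0.81 ± 0.12) rose, and the potassium channels Kcnk10 (-0.82 ± 0.12) and Kcnk9 (-0.44 ± 0.08) fell.

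In redox defence, of 59 selenoprotein, thioredoxin, peroxiredoxin and glutaredoxin genes 8 rose and 6 fell (5 rises without Nemo KO replicates 2 or 3, and 3 falls without Nemo KO replicate 2 or WT replicate 1 and 2 without Nemo KO replicate 3 or WT replicate 2). Gpx8 (0.98 ± 0.14), the extracellular superoxide dismutase Sod3 (0.68 ± 0.09), Selenon (0.64 ± 0.08) and Msrb3 (0.57 ± 0.11) rose, and Gpx6 (-0.69 ± 0.14) and Txnrd3 (-0.67 ± 0.09) fell. Gpx6 did not pass in the fit of the 6 arrays alone. Of 119 glycosyltransferases 14 rose and 5 fell (8 rises without Nemo KO replicate 2 or WT replicate 1 and 9 without Nemo KO replicate 3, and 1 fall without Nemo KO replicates 2 or 3 or WT replicate 1 and 3 without Nemo KO replicate 1, Nemo/TRAIL dKO replicates 1 or 2 or Nemo/TNFR1 dKO replicate 2). Their shares were 11.8% and 4.2%, against 8.51% and 4.08% of all genes. The galactosyltransferases B4galt6 (1.20 ± 0.13) and B4galt5 (0.87 ± 0.16) and the branching enzyme Mgat4a (0.73 ± 0.14) rose, and St6gal1, which adds sialic acid to plasma glycoproteins, fell (-0.54 ± 0.10 SE, adjusted p = 0.0086). Autophagy and mTORC1 genes had 4 rises and 4 falls of 40 (2 rises without Nemo KO replicate 3 or WT replicate 2 and 1 without Nemo KO replicate 2, and 2 falls without Nemo KO replicates 2 or 3 or WT replicate 2). Each is 10% of the list, against 8.51% and 4.08% of all genes. Ddit4l (0.80 ± 0.11), an mTORC1 inhibitor, rose, while Deptor (-0.49 ± 0.09) and Ulk2 (-0.35 ± 0.07) fell.

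Imprinted and growth-arrest genes rose in 8 of 22 cases and none fell (5 rises without WT replicates 1 or 2). Peg10 measured 8.30, 7.82 and 7.98 in the Nemo KO livers, against 6.001, 6.41 and 6.08 in the WT livers, a rise of 1.87 ± 0.32 (SE, adjusted p = 0.00628), and its neighbour Sgce rose by 1.01 ± 0.19. Phlda2, a maternally expressed growth regulator, measured 7.76, 7.91 and 7.49 in the Nemo KO livers, against 6.53, 6.36 and 6.58 in the WT livers, a rise of 1.23 ± 0.14 (SE, adjusted p = 0.000909). The groups stood apart by 1.40 and 0.91. Meg3, a maternally expressed long RNA on chromosome 12, measured 8.60, 8.18 and 9.43 in the Nemo KO livers, against 6.92, 7.62 and 7.31 in the WT livers, a difference of 1.45 ± 0.37 (SE, adjusted p = 0.0396). Meg3 did not pass without Nemo KO replicates 1 or 3, WT replicates 1, 2 or 3, Nemo/TRAIL dKO replicates 1 or 2 or Nemo/TNFR1 dKO replicate 2 (adjusted p up to 0.122), nor in the fit of the 6 arrays alone or with array weights.

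Probe sets annotated to micro-RNA genes were read as genes, and the mature forms were not measured. Of 300 such genes 2 rose and 16 fell (6 falls without Nemo KO replicates 2 or 3 or WT replicate 1 and 7 without Nemo KO replicate 1). Their shares were 0.667% and 5.33%, against 8.51% and 4.08% of all genes, so the share of falls was near the background. Most of the 300 differences were negative: 61 were positive, and the median was -0.10, against -0.05 over all genes. Whether the falls exceed this general shift was not tested. Both that rose, Mir377 and Mir380, lie in the large cluster downstream of Meg3. Within 100 kb before to 400 kb after Meg3 40 micro-RNA genes were measured, of which 19 had a positive difference, 2 rose and 1 fell. Elsewhere 42 of 260 had a positive difference. The median difference was -0.001 in this region and -0.115 elsewhere. Mature sequences of the genes that rose are shown first, followed by those of the falls that are clustered on chromosome 16 or share a seed, and of Mir192, which liver is rich in. The sequences come from RefSeq (GRCm38.p6) for 14 of the 18 called genes, and the capitals mark the seed, bases 2 to 8.
miR-377-3p: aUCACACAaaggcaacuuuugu
miR-380-3p: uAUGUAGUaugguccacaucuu
let-7c-5p: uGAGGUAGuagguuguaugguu
miR-99a-5p: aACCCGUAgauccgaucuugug
miR-17-5p: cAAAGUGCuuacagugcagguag
miR-20a-5p: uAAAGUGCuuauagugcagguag
miR-192-5p: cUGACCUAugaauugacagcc

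Mir377 measured 4.47, 4.56 and 4.91 in the Nemo KO livers, against 3.79, 3.68 and 3.83 in the WT livers, a rise of 0.88 ± 0.14 (SE, adjusted p = 0.00506). Mir380 measured 4.05, 3.57 and 4.06 in the Nemo KO livers, against 3.12, 3.28 and 2.91 in the WT livers, a rise of 0.79 ± 0.14 (SE, adjusted p = 0.0066). In both genes all WT values lay below 4.79, the median WT level of the 300 micro-RNA genes, so both rises started from a low level. The 2 hairpins gave mature forms with unlike seeds at chr12:109740553-109740574 and chr12:109711842-109711863 on the plus strand. Mirlet7c-1 (-0.61 ± 0.12 SE, adjusted p = 0.0106) and its neighbour Mir99a (-0.53 ± 0.12 SE, adjusted p = 0.0214) fell, with mature forms at chr16:77599672-77599693 and chr16:77598940-77598961. Their seeds differ, and so do their values: Mirlet7c-1 measured 4.47, 4.50 and 4.38 in the Nemo KO livers, against 5.23, 4.90 and 5.06 in the WT livers. The call of Mir99a was lost without Nemo KO replicates 2 or 3 or WT replicates 1 or 2 (adjusted p up to 0.0838). Mir17 (-0.30 ± 0.08) and Mir20a (-0.32 ± 0.06), which lie in 1 cluster on chromosome 14, share the seed AAAGUGC. Mir17 did not pass without Nemo KO replicates 2 or 3, WT replicates 1 or 2, Nemo/TRAIL dKO replicates 1 or 2 or Nemo/TNFR1 dKO replicate 3 (adjusted p up to 0.131). The call of Mir20a was lost without Nemo KO replicates 1 or 3 (adjusted p up to 0.0583). Mir192 measured 5.32, 5.17 and 5.25 in the Nemo KO livers, against 6.12, 6.02 and 5.66 in the WT livers, a difference of -0.69 ± 0.14 (SE, adjusted p = 0.0143). Mir192 did not pass without Nemo KO replicates 2 or 3 or WT replicate 2 (adjusted p up to 0.0574). Mir680-2 fell by 0.73 ± 0.12 (SE, adjusted p = 0.0058). No Nemo KO value of Mir192, Mir377, Mir380 or Mirlet7c-1 overlapped a WT value.

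Markers of the cell types of the organ moved with many of these families. Of 14 macrophage and monocyte markers 13 rose and none fell, with a median of 1.32 (1.33 without WT replicate 3), and their mean level was 8.67, 8.74 and 8.88 in the Nemo KO arrays, against 7.53, 7.59 and 7.57 in the WT arrays. The markers that rose most were Ms4a7 (2.08 ± 0.28), Mpeg1 (1.57 ± 0.19), Ctss (1.45 ± 0.16) and Ccr2 (1.38 ± 0.17). Of 15 stellate cell and fibroblast markers 12 rose and none fell (median 0.94, 0.79 without WT replicate 3), with Cygb at 1.53 ± 0.14, and their mean level was 9.52, 9.57 and 9.70 in the Nemo KO arrays, against 8.52, 8.60 and 8.73 in the WT arrays. Neither list overlapped between the groups. Their part in the rises of the Fc and TREM, matricellular, cytoskeletal and ETS genes was not tested, and Tyrobp, Lum and Pdgfrb stand in a marker list and in a family. Hepatocyte markers had no called member of 17 (unadjusted p below 0.05 in 6), and their mean level was 12.84, 12.83 and 12.85 in the Nemo KO arrays, against 12.93, 12.97 and 12.95 in the WT arrays. These mean levels were lower in every Nemo KO array than in any WT array. Of the 17 differences 2 were positive, with a median of -0.06, against -0.05 over all genes.

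Other lists held smaller shares of called members. Mean levels of the dendritic cell, T and NK cell, cholangiocyte and adipocyte lists were higher in every Nemo KO array than in any WT array. Of 12 dendritic cell markers 5 rose, with Itgax (1.42 ± 0.22), Cd209a (0.90 ± 0.16) and Siglech (0.71 ± 0.11). Of 10 Kupffer cell markers 3 rose and 1 fell (1 rise without Nemo KO replicates 2 or 3). Marco (0.90 ± 0.15) rose most and Cd163 fell. Of 14 cholangiocyte markers 3 rose (1 rise without Nemo KO replicates 1, 2 or 3, WT replicates 1 or 2 or Nemo/TNFR1 dKO replicate 2). All 14 differences were positive, with a median of 0.35 (0.48 without WT replicate 3). Their mean level was 6.77, 6.60 and 6.59 in the Nemo KO arrays, against 5.88, 6.23 and 6.30 in the WT arrays. The protease St14 rose by 0.87 ± 0.17. Alas2, the haem synthase of erythroid cells, fell (-0.91 ± 0.16 SE, adjusted p = 0.00646), one of 2 falls among 6 erythroid markers (1 fall without Nemo KO replicates 1, 2 or 3, Nemo/TRAIL dKO replicates 1 or 2 or Nemo/TNFR1 dKO replicate 2). The mean level of the list was 5.99, 5.92 and 5.86 in the Nemo KO arrays, against 6.38, 6.17 and 6.27 in the WT arrays. Hdc, the histamine synthesis enzyme, rose by 0.70 ± 0.13 among 13 mast cell and basophil markers, of which 1 rose and 1 fell (0 falls in each of the 11 fits without 1 array). Neutrophil, T and NK cell and B cell lists had 1 call each, and sinusoidal endothelial, platelet, mesothelial, Schwann cell and skeletal muscle markers none by limma, where 3, 2, 2, 2 and 2 of them had an unadjusted p below 0.05. The single rises were 6.67%, 5.56% and 8.33% of the neutrophil, T and NK cell and B cell lists. That of the mast cell list was 7.69%, against 8.51% of all genes. Smooth muscle markers overlapped between the groups, with a mean level of 6.94, 6.95 and 7.02 in the Nemo KO arrays, against 6.62, 7.05 and 7.46 in the WT arrays. Of 12 adipocyte markers 3 rose (1 rise without Nemo KO replicate 1 or WT replicate 2). These were Lpl, Cidec and Pparg. The call of Cidec (1.60 ± 0.35) was lost without Nemo KO replicates 1 or 3 or WT replicates 1 or 2 (adjusted p up to 0.0656). Pancreatic acinar markers had a mean level of 5.32, 5.25 and 5.25 in the Nemo KO arrays, against 5.47, 5.40 and 10.14 in the WT arrays, and none was called (unadjusted p below 0.05 in 0 of 22).

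**Figure D5:**
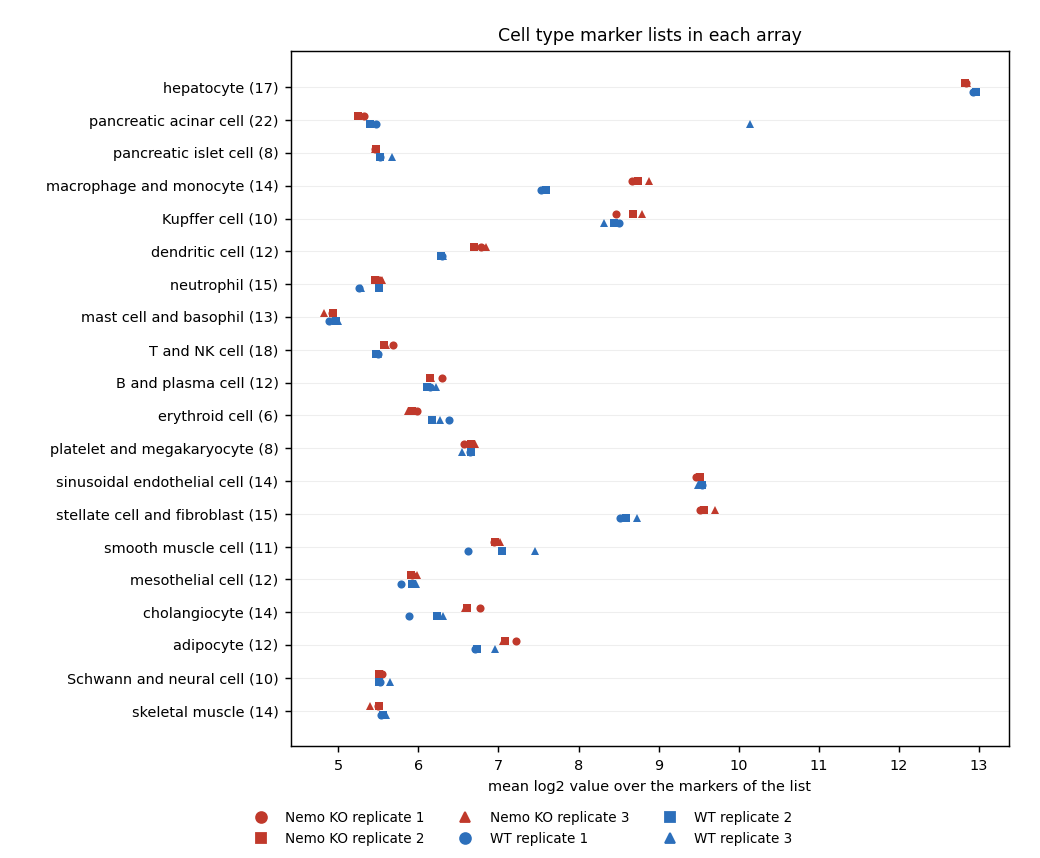
Mean log2 value (x axis) over the markers of each of 20 cell type lists, with the number of measured markers in parentheses. Red marks are the 3 Nemo KO arrays and blue marks the 3 WT arrays. Macrophage, stellate cell, dendritic cell, cholangiocyte, T and NK cell and adipocyte lists lie higher in all Nemo KO arrays. The pancreatic acinar list lies high in WT replicate 3 (blue triangle) alone.

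The double knockouts show how the largest changes stood when TRAIL or TNFR1 was missing as well. They share the Nemo deletion, and each comparison with Nemo KO uses the same 3 Nemo KO arrays. Of the 60 genes with the largest changes none passed in either double knockout against Nemo KO by limma, where 7 and 14 had an unadjusted p below 0.05, and over all 35556 probe sets 2 and 12 passed. Those 60 genes were chosen for large differences in the same Nemo KO arrays. Values nearer to WT in the double knockouts are therefore partly built in. The share of all probe sets with an unadjusted p below 0.05 was not counted, so 7 and 14 lack a background. Adgrf1 averaged 7.39 in Nemo/TRAIL dKO, 7.68 in Nemo/TNFR1 dKO and 6.02 in Nemo KO, with 8.09 in WT. The differences of Adgrf1 from Nemo KO were 1.37 ± 0.31 in Nemo/TRAIL dKO (adjusted p = 0.919) and 1.66 ± 0.28 in Nemo/TNFR1 dKO (adjusted p = 0.217). Camk1d averaged 9.40 in Nemo/TRAIL dKO, 9.78 in Nemo/TNFR1 dKO and 8.81 in Nemo KO, with 10.11 in WT. The differences of Camk1d from Nemo KO were 0.59 ± 0.20 in Nemo/TRAIL dKO (adjusted p = 1) and 0.97 ± 0.17 in Nemo/TNFR1 dKO (adjusted p = 0.273). Other genes that fell in Nemo KO lay further from WT in both double knockouts. Pcp4l1 differed from Nemo KO by -0.74 ± 0.19 in Nemo/TRAIL dKO (adjusted p = 1) and -0.89 ± 0.17 in Nemo/TNFR1 dKO (adjusted p = 0.291). Hsd3b5 differed by -1.36 ± 0.86 in Nemo/TRAIL dKO, which did not pass, and by -1.78 ± 0.77 in Nemo/TNFR1 dKO (adjusted p = 0.72). Nipal2 differed by -1.72 ± 0.58 in Nemo/TRAIL dKO (adjusted p = 1) and -1.83 ± 0.52 in Nemo/TNFR1 dKO (adjusted p = 0.507). The difference between the double knockouts was not tested.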

How the data were processed

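RNA of 11 liver samples was measured on Affymetrix MoGene 1.0 ST arrays. The log2 expression values per probe set were deposited by the authors after RMA (background correction, quantile normalization and summary of probes), per the submitters' processing notes, which name no version. The table held 35556 probe sets, of which 21789 had a single gene symbol in GEO's platform annotation, 1621 several and 12146 none. Symbols were updated through RefSeq (GRCm38.p6), which held 21698 of the 21789. They made 19938 genes, and for 999 genes with more than 1 probe set the one with the highest mean was used. Of 161 further probe sets of 110 called genes, 18 had the opposite sign.

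All 11 arrays were fitted with limma (version 3.58.1, R 4.3.3) with 1 mean per genotype, 7 residual and 2.51 prior degrees of freedom, and p-values were adjusted by the Benjamini-Hochberg method over all 35556 probe sets. Every adjusted p comes from this fit or from an alternative of it: other normalizations and moderations, filters on low signal, the 6 arrays alone, array weights, a replicate block, each array left out in turn, and stricter thresholds. The code was tested on simulated data. No pairing by replicate number was seen, since deviations of same-numbered Nemo KO and WT arrays had correlations of -0.09, 0.002 and 0.003. With 3 arrays per group such correlations cannot exclude a pairing.

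The genes and the 88 gene lists were chosen with earlier results of these data known, and the micro-RNA genes and 26 ligand and receptor pairs after their values were seen. One of the lists is not reported here. Genes were named by rule: Ikbkg, the 30 largest changes in each direction among called genes whose groups did not overlap, and up to 4 called members of each list and direction. This rule took 409 genes, of which 399 were called. Those whose call was lost when a single array was left out are named only in part. Members of the pairs, Mir17, Mir20a and Mir99a were named after their values were seen.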

Additional observations from a re-analysis of the deposited data

How the results depend on the processing

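Of 3304 probe sets called in Nemo KO against WT, 2161 were higher and 1143 lower. An adjusted p below 0.01 left 1416 (1126 higher, 290 lower), and a change of at least 1.5-fold left 1680 (1340 higher, 340 lower). With each array left out in turn the total ran between 1933 and 3549, the higher between 1417 and 2275 and the lower between 516 and 1274. The total was lowest without Nemo KO replicate 3 (1933) and replicate 2 (1979). The lower count was also more than 1.5 times below 1143 without Nemo KO replicate 1 (739), WT replicate 1 (697) and WT replicate 2 (698). Without either Nemo/TRAIL dKO array the fit was the same, and the lone array was assumed to vary like the others. Median centring of each array gave 1955 higher and 1511 lower, and quantile normalization 2110 and 1380. The other normalizations, moderations and filters moved no count by more than 1.5 times. The replicate block, which treats same-numbered arrays as paired, gave 2781 calls (1889 higher, 892 lower). Of the 399 called genes named by the rule 353 held in it. With the 6 arrays alone 339 held, and in all 11 fits without 1 array 270 held. No named gene reversed its direction in any of these fits. The number of arrays, 3 in each of both groups, limits the precision, with a median SE of 0.10.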
